A study of Mus musculus with 35 samples.

Results

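The Gadd45 family comprises 3 genes, Gadd45a, Gadd45b and Gadd45g, which were picked by symbol from 31053 genes counted in mouse kidneys at postnatal day 2. All 3 members were measured in all 35 libraries and passed the count filter of each comparison with all its libraries. The libraries were prepared with the QuantSeq 3′ kit, in which sequencing starts near the polyA tail of each mRNA. The kidneys came from C57BL/6 mice of 3 crosses made to ask how loss of the tumour suppressor Flcn acts on the kidney when the transcription factors Tfeb or Tfe3 are missing as well. In the Flcn cross, 5 libraries were labelled Flcn KO (Flcn flox/flox; Ksp-cre+) and 5 control. In the Flcn/Tfeb cross, 4 were labelled Flcn/Tfeb DKO (Ksp-cre+ with floxed alleles of both Flcn and Tfeb, each flox/flox) and 3 control. In the Flcn/Tfe3 cross, 10 were labelled Flcn/Tfe3 DKO (Flcn flox/flox; Ksp-cre+; Tfe3-/-) and 8 control. The Ksp-cre transgene is driven by the Cdh16 promoter and acts in collecting ducts, distal tubules and the thick ascending limb, so the rest of each whole kidney keeps its floxed alleles, whereas Tfe3 is null in every cell of the Flcn/Tfe3 DKO mice. The controls of the Flcn cross were described as Flcn flox/flox, and the genotypes of the other controls are given only as control. The first 2 crosses, 17 libraries, form set A, and the Flcn/Tfe3 cross came as 2 count tables, set B (6 DKO and 3 control) and set C (4 DKO and 5 control).

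GADD45 proteins are small, acidic stress proteins without known enzymatic activity that act by binding other proteins. They bind the kinase MAP3K4 upstream of p38 and JNK, the cell cycle kinase CDK1, the replication clamp PCNA and the inhibitor CDKN1A (p21), and have been linked to growth arrest, DNA repair and removal of DNA methylation. Gadd45a is a classical p53 target that also responds to ATF4 and FOXO factors, Gadd45b is induced by NF-κB and TGF-β signals and as an immediate early response, and Gadd45g is induced by cytokines and differentiation signals.

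In the GENCODE M21 annotation of mm10, Gadd45a (ENSMUSG00000036390) lies at chr6:67035096-67037457 on the minus strand, Gadd45b (ENSMUSG00000015312) at chr10:80930073-80932204 on the plus strand and Gadd45g (ENSMUSG00000021453) at chr13:51846678-51848468 on the plus strand. The longest coding transcript of each member has 4 exons, and spans 1223, 1284 and 1071 bases, respectively. Gadd45b and Gadd45g overlap no other annotated gene. Gadd45a overlaps 1 gene on the opposite strand, E230016M11Rik, at the end where its transcription starts, away from the 3′ end that the assay reads. The strand setting of the counting is not given in the sources used here.

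The sequences before the start of each member are shown because TFEB and TFE3 bind motifs with the core CACGTG, and because CCAAT and octamer (ATTTGCAT) motifs are known elements of the Gadd45a promoter. They are RefSeq promoters of GRCm38.p6, read 5′ to 3′ on the strand of the gene and ended before the first start in either annotation: chr6:67037458-67037657 (minus strand) for Gadd45a, chr10:80929841-80930072 (plus strand) for Gadd45b and chr13:51846425-51846674 (plus strand) for Gadd45g. Capitals mark matches to CACGTG, to CCAAT, to ATTTGCAT and to TATAAA on either strand.
Gadd45a: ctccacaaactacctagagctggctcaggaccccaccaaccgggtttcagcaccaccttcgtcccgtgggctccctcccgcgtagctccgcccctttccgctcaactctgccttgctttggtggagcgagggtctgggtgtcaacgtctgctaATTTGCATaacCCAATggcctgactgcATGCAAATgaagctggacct
Gadd45b: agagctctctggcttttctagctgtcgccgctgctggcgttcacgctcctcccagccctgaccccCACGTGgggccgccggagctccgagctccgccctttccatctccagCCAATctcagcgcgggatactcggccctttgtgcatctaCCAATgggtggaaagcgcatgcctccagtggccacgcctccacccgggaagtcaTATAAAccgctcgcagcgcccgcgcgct
Gadd45g: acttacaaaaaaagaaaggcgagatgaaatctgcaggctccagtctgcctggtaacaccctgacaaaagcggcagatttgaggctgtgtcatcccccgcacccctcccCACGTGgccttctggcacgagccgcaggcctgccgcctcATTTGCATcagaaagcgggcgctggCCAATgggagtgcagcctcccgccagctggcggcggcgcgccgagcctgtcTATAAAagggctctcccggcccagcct

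Motifs were counted on both strands in windows of 300 bases, from 250 before to 50 bases into the gene, at 32817 promoters. CACGTG, which is its own reverse complement, was found once in Gadd45b, 185 bases before the RefSeq start, and once in Gadd45g, 142 bases before it, and not in the window of Gadd45a. It was present in 7.15% of all windows. CCAAT was found once in Gadd45a, 2 times in Gadd45b and once in Gadd45g, and in 37.4% of all windows. ATTTGCAT was found 2 times in Gadd45a, on both sides of its CCAAT, and once in Gadd45g, and in 1.74% of all windows. TATAAA was found once each in Gadd45b and Gadd45g and in 13.6% of windows, GGGCGG once each in Gadd45a and Gadd45b and in 35.6%, and TGACGTCA in none of the members and in 1.79%. No motif overlapped another. A match describes letters only, and one missing from a window says nothing about a factor's binding.

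Library depth, as the sum of gene counts, was 1652649 to 4239356 reads (median 2992169), and were lowest in set A and highest in set B. CPM are counts divided by the library size and scaled to 1e6 reads, and the levels given are on TMM-scaled sizes. On library totals without that scaling, a count of 0 would have allowed a level of up to 0.708 to 1.82 CPM (3 counts of the total). No member was at 0 in any library. Such limits for a count of 0 cover counting error only. No pair of libraries in a group was alike within sampling noise. The 3′ counts of the targeted genes showed no fall that passed the edgeR test. Mean Flcn was 13.9 ± 2.27 CPM (SD, n = 5) in the Flcn controls against 15.1 ± 3.25 CPM (SD, n = 5) in the libraries carrying the Flcn KO label. Tfeb was 11.99 ± 6.68 CPM (SD, n = 3) in the Flcn/Tfeb controls and 7.50 ± 0.68 CPM (SD, n = 4) in the DKO libraries (log2 fold change -0.73 ± 0.38, SE, edgeR adjusted p = 0.80). Tfe3 was 21.1 ± 5.06 CPM (SD, n = 3) and 18.2 ± 0.68 CPM (SD, n = 5) in the controls of sets B and C and 19.6 ± 4.69 CPM (SD, n = 6) and 17.1 ± 1.45 CPM (SD, n = 4) in the Flcn/Tfe3 DKO libraries. In the set A controls Tfe3 was higher, at 32.1 ± 5.20 CPM (SD, n = 5) for Flcn and 36.6 ± 6.83 CPM (SD, n = 3) for Flcn/Tfeb. Set and cross cannot be told apart there, and the genotype of the Flcn/Tfe3 controls is given only as control. Reads at a 3′ end can lie outside the deleted part, and whether they did here was not tested. The groups are therefore those of the labels. Markers of the tubule segments were present in all groups, and none of the 5 intercalated cell or 4 thick ascending limb markers was at 0 in any group.

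Gadd45g and Gadd45a were the more abundant members and Gadd45b the least abundant. In this assay each transcript gives reads from its 3′ end only, so the level in CPM does not scale with transcript length. Members can be set side by side in that respect. How well the 3′ end of each member was captured and mapped was not tested. Over the 35 libraries the mean level was 24.9 CPM for Gadd45g, 20.6 CPM for Gadd45a and 6.08 CPM for Gadd45b. These levels stood at the 47.2, 41.2 and 9.4 percentiles of 12274 genes with a mean of at least 10 counts. Counts per library were 31 to 132 for Gadd45g, 20 to 127 for Gadd45a and 5 to 46 for Gadd45b, which limits the precision of Gadd45b most.

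**Figure D1:**
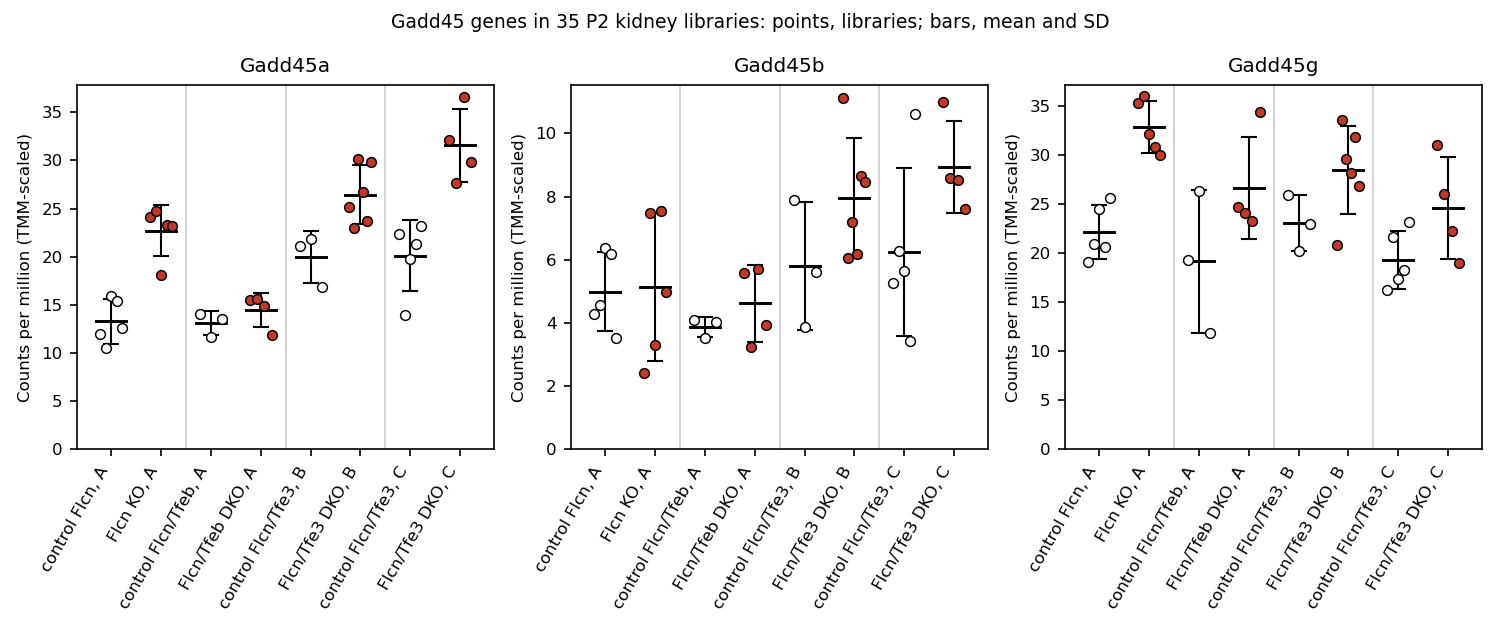
Level of each Gadd45 gene (y axis, CPM on TMM-scaled library sizes) in the 35 libraries by group and set (x axis). Open points are control libraries and red points libraries labelled KO or DKO, with the mean and SD as bars. Gadd45a of all mutant libraries lies above all controls in the Flcn cross and in sets B and C, whereas in the Flcn/Tfeb cross the groups overlap.

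Gadd45a had its lowest group means in set A controls and its highest in Flcn/Tfe3 DKO kidneys. From low to high, the mean level was 13.1 ± 1.24 CPM (SD, n = 3) in control Flcn/Tfeb, 13.3 ± 2.33 CPM (SD, n = 5) in control Flcn, 14.5 ± 1.78 CPM (SD, n = 4) in Flcn/Tfeb DKO, 19.9 ± 2.70 CPM (SD, n = 3) and 20.1 ± 3.68 CPM (SD, n = 5) in the controls of sets B and C, 22.7 ± 2.66 CPM (SD, n = 5) in Flcn KO, 26.4 ± 3.06 CPM (SD, n = 6) in Flcn/Tfe3 DKO of set B and 31.5 ± 3.82 CPM (SD, n = 4) in those of set C. Neighbours in this order differed by more than the larger of their SDs only between Flcn/Tfeb DKO and the set B controls, between Flcn KO and Flcn/Tfe3 DKO of set B, and between the latter and Flcn/Tfe3 DKO of set C. Since control levels differed between set A and sets B and C, and set and cross cannot be told apart there, each mutant group was compared only with controls of its own cross and set.

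Gadd45g had its highest group mean in Flcn KO kidneys, at 32.8 ± 2.66 CPM (SD, n = 5). Below it came Flcn/Tfe3 DKO of set B with 28.5 ± 4.49 CPM (SD, n = 6), Flcn/Tfeb DKO with 26.6 ± 5.19 CPM (SD, n = 4) and Flcn/Tfe3 DKO of set C with 24.6 ± 5.17 CPM (SD, n = 4). The 4 control groups followed, with 23.0 ± 2.85 CPM (SD, n = 3) in set B, 22.1 ± 2.76 CPM (SD, n = 5) in control Flcn, 19.3 ± 2.95 CPM (SD, n = 5) in set C and 19.2 ± 7.26 CPM (SD, n = 3) in control Flcn/Tfeb. No neighbours in this order differed by more than the larger of their SDs. Gadd45b means went from 3.88 ± 0.32 CPM (SD, n = 3) in control Flcn/Tfeb, 4.62 ± 1.22 CPM (SD, n = 4) in Flcn/Tfeb DKO, 4.99 ± 1.25 CPM (SD, n = 5) in control Flcn and 5.15 ± 2.34 CPM (SD, n = 5) in Flcn KO to 5.80 ± 2.01 CPM (SD, n = 3) and 6.24 ± 2.66 CPM (SD, n = 5) in the controls of sets B and C, 7.94 ± 1.90 CPM (SD, n = 6) in Flcn/Tfe3 DKO of set B and 8.93 ± 1.45 CPM (SD, n = 4) in those of set C. Here too no neighbours differed by more than the larger of their SDs.

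In the Flcn cross, Gadd45a was 11.9, 10.5, 15.97, 15.4 and 12.6 CPM in the 5 control libraries and 24.2, 24.7, 18.1, 23.3 and 23.2 CPM in the 5 libraries labelled Flcn KO. All Flcn KO libraries lay above all controls, and Flcn KO replicate 3 was the lowest of its group. The log2 fold change was 0.76 ± 0.18 (SE), with an edgeR adjusted p of 0.064 over 11932 genes, which missed the threshold of 0.05. An exact two-sided permutation test of this gene alone gave p = 0.00794, the smallest that 252 regroupings allow. Of all genes tested, 0.453% were called higher in this cross and 1.69% had every mutant library above every control. The gene was called with DESeq2 (adjusted p = 0.0257) and in a fit of all 35 libraries (adjusted p = 0.00833), and the range over all 7 alternatives was 0.00833 to 0.144. Gadd45a and Gadd45g are both on the list of increased transcripts that the study drew from these Flcn KO libraries. Their direction in this cross is therefore not independent evidence. The study also stated that the increase of the listed transcripts was lost fully without Tfeb but not without Tfe3. That statement rests on the other crosses. The values of Gadd45a and Gadd45g there, and their differences between crosses, are thus not independent evidence either.

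Gadd45g was 19.1, 20.96, 24.5, 20.6 and 25.6 CPM in the control libraries of the same cross and 35.3, 35.9, 32.1, 30.8 and 30.0 CPM in those labelled Flcn KO. Here too all Flcn KO libraries lay above all controls. Its log2 fold change was 0.57 ± 0.14 (SE; edgeR adjusted p = 0.10), with an exact permutation p of 0.00794. It was not called in any of the 7 alternatives (adjusted p from 0.0686 to 0.229).

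Gadd45b showed no such separation. It was 4.30, 4.56, 6.39, 6.20 and 3.53 CPM in the controls and 2.42, 7.48, 3.32, 7.54 and 4.998 CPM in the libraries labelled Flcn KO. The Flcn KO libraries spanned the range of the controls on both sides. The log2 fold change was 0.048 ± 0.33 (SE), with a 95% interval from -0.65 to 0.75, an edgeR adjusted p of 0.98 and an exact permutation p of 0.897. Its sign turned negative without control replicate 5, Flcn KO replicate 2 or Flcn KO replicate 4 (log2 fold changes of -0.07, -0.17 and -0.08).

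In the Flcn/Tfeb cross no member showed a difference that passed a test. No gene of 12469 passed the edgeR threshold in this cross (0% called), 632 had an unadjusted p under 0.05, DESeq2 called 0 and the fit of all 35 libraries called 3. Gadd45a was 14.1, 11.7 and 13.5 CPM in the 3 controls and 15.5, 15.6, 14.9 and 11.8 CPM in the 4 libraries labelled Flcn/Tfeb DKO. The groups overlapped through Flcn/Tfeb DKO replicate 4, while the other 3 lay above the controls. Of all genes, 2.9% had every DKO library above every control, and none of the members did. Its log2 fold change was 0.12 ± 0.25 (SE; 95% interval -0.43 to 0.67, edgeR adjusted p = 0.90, exact permutation p = 0.371). It was 0.057 without control replicate 2 and 0.22 without DKO replicate 4.

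Gadd45g was 19.3, 26.3 and 11.8 CPM in the Flcn/Tfeb controls and 24.7, 24.0, 23.3 and 34.3 CPM in the libraries labelled Flcn/Tfeb DKO. The controls were widely spread, and all 4 DKO libraries lay above their mean. Control replicate 3, at 11.8 CPM, had 9.07% of its reads on no gene, against 17.8 to 19.9% in the other libraries of the cross. Its share of reads aligned to more than 1 place was 41.2%, against 46.4 to 49.4%. The part of this in its Gadd45g level was not tested. The log2 fold change of 0.50 ± 0.29 (SE; 95% interval -0.15 to 1.14, edgeR adjusted p = 0.80, exact permutation p = 0.171) fell to 0.22 without control replicate 3 and was 0.80 without control replicate 2. For the transcripts on its list, the study stated that loss of Tfeb fully removed the increase. The interval of Gadd45g here holds both 0 and its Flcn cross value of 0.57, so it cannot decide this for Gadd45g. Gadd45b was 4.10, 3.51 and 4.03 CPM in the controls and 5.57, 3.25, 5.72 and 3.94 CPM in the DKO libraries, with overlapping groups. Its log2 fold change was 0.25 ± 0.41 (SE; edgeR adjusted p = 0.87, exact permutation p = 0.40). The smallest p that 35 regroupings allow is 0.0286.

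In the Flcn/Tfe3 cross, Gadd45a rose, and it was the only member called in any cross by the edgeR test. In set B it was 21.1, 21.9 and 16.8 CPM in the 3 controls and ranged from 23.0 to 30.2 CPM (median 25.9) in the 6 libraries labelled Flcn/Tfe3 DKO. In set C the controls were 22.4, 13.9, 19.8, 21.3 and 23.2 CPM and the DKO libraries 32.2, 27.6, 36.6 and 29.8 CPM. Every DKO library was above every control of its set in both sets, as held for 0.273% of the 12456 genes tested (1.69% in set B and 3.36% in set C). The log2 fold change was 0.53 ± 0.12 (SE), with an edgeR adjusted p of 0.041 in a fit with the set as a term, and 0.345% of all genes were called higher (43 higher and 5 lower). The exact permutation test within sets gave p = 9.45e-05, the smallest that 10584 regroupings allow. Within set B alone the log2 fold change was 0.41 ± 0.17 (SE; edgeR adjusted p = 0.75) and within set C alone 0.61 ± 0.18 (SE; edgeR adjusted p = 0.059). Set C alone had mostly lower calls, 460 of 569, whereas set B alone had 8 calls, all higher. In set C every DKO library was deeper (3159884 to 3555791 reads) than every control (1719367 to 2909353 reads). Reads on no gene made up 7.92 to 10.5% in these DKO libraries and 8.78 to 18.4% in the controls. Control replicate 5, with the lowest Gadd45a of set C, had the lowest depth and the 18.4%. The part of these differences in the levels was not tested.

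The call of Gadd45a in the Flcn/Tfe3 cross lay close to the threshold. It held with DESeq2 (adjusted p = 0.00949), in a fit of all 35 libraries (0.013) and with a filter at a mean of 10 counts (0.042). It was lost with RLE factors (adjusted p = 0.051), with no filter (0.058) and with Xist as a covariate (0.16), and over the 9 alternatives the adjusted p ranged from 0.00949 to 1. It was also lost within either set alone and with the replicate number as a block (log2 fold change 0.41). Leaving out 1 library lost it in 15 of 18 cases (adjusted p from 0.041 to 0.12), with log2 fold changes from 0.48 to 0.57. Xist, transcribed from the inactive X chromosome of females, was above 10 CPM in 4 of 5 controls and 2 of 4 DKO libraries of set C, and in 1 of 3 controls and 1 of 6 DKO libraries of set B.

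Gadd45b was 7.90, 3.89 and 5.61 CPM in the set B controls and 5.26, 6.27, 5.65, 3.43 and 10.6 CPM in those of set C. In the libraries labelled Flcn/Tfe3 DKO it ranged from 6.05 to 11.1 CPM (median 7.83) in set B and was 11.002, 8.58, 8.53 and 7.60 CPM in set C. Groups overlapped in both sets, yet all 10 DKO libraries lay above the control mean of their set. The log2 fold change was 0.50 ± 0.21 (SE; 95% interval 0.054 to 0.94), with an edgeR adjusted p of 0.59 and an exact permutation p of 0.0182. A total of 3.68% of all genes were higher at an unadjusted edgeR p under 0.05 in this cross, as were Gadd45b and Gadd45g. Neither was within set B or set C alone (unadjusted edgeR p of 0.155 and 0.144 for Gadd45b, 0.104 and 0.113 for Gadd45g). The same held with the replicate number as a block (0.114 and 0.108). Gadd45b was also not with Xist as a covariate (0.12) or without single libraries, as control Flcn/Tfe3 replicate 2 (0.087).

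Gadd45g was 25.9, 20.2 and 23.0 CPM in the set B controls and ranged from 20.8 to 33.6 CPM (median 28.9) in the DKO libraries. In set C it was 16.2, 21.6, 17.3, 18.3 and 23.2 CPM in the controls and 31.0, 26.02, 22.2 and 19.0 CPM in the DKO libraries. The groups overlapped in both sets, and 8 of 10 DKO libraries lay above the control mean of their set. The log2 fold change was 0.34 ± 0.13 (SE; 95% interval 0.077 to 0.60, edgeR adjusted p = 0.46, exact permutation p = 0.0158).

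**Figure D2:**
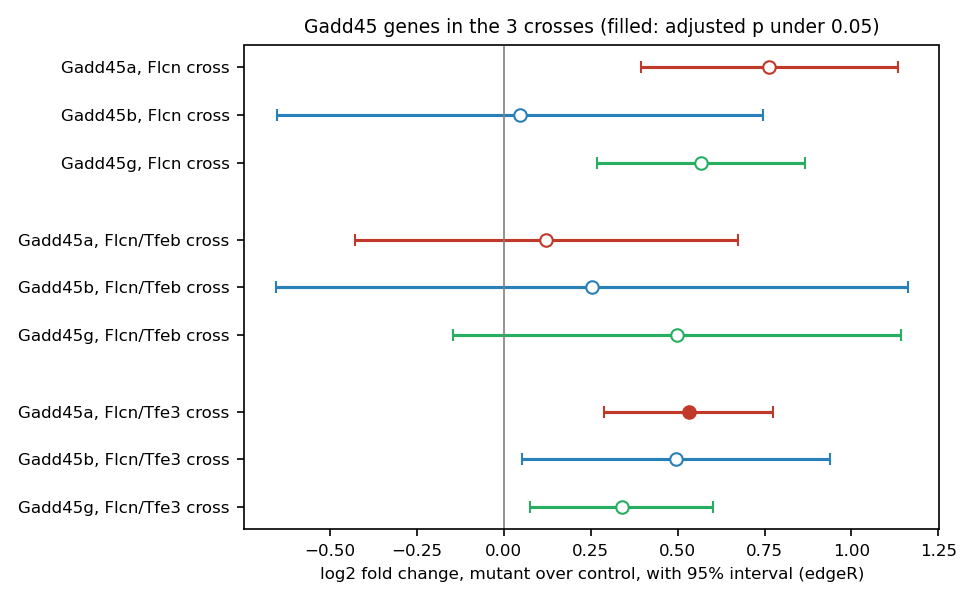
Log2 fold change of mutant over control libraries (x axis) with its 95% interval for each member and cross (y axis), from edgeR. The filled point, Gadd45a in the Flcn/Tfe3 cross at 0.53, is the only one with an adjusted p under 0.05. All 9 estimates lie above 0, as did 47.9 to 51.9% of all genes in a cross. That of Gadd45b in the Flcn cross is 0.048. It turned negative without some single libraries, and the difference of mean log2 values in the exact test was -0.040.

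Whether the change of a member differed between crosses was tested as an interaction, each effect being taken against its own controls. The effect on Gadd45a was 0.65 ± 0.27 lower on the log2 scale (SE) in the Flcn/Tfeb than in the Flcn cross, with an unadjusted edgeR p of 0.0277 and an adjusted p of 0.82. In that contrast 3.71% of all genes had a lower effect at the same unadjusted threshold and 0.0153% were called in either direction. For Gadd45a, the Flcn/Tfe3 effect less the Flcn effect was -0.22 ± 0.19 (SE; edgeR adjusted p = 0.78), and the Flcn/Tfe3 effect less the Flcn/Tfeb effect was 0.40 ± 0.24 (SE; edgeR adjusted p = 0.49). For Gadd45b the 3 differences lay between 0.21 and 0.46 with SEs of 0.39 to 0.53, and for Gadd45g between -0.21 and -0.06 with SEs of 0.19 to 0.29. The Flcn/Tfeb less Flcn difference of Gadd45g changed sign without control Flcn/Tfeb replicate 2 (from -0.06 to 0.24) or Flcn/Tfeb DKO replicate 3 (to 0.016) and was -0.34 without control Flcn/Tfeb replicate 3. Its Flcn/Tfe3 less Flcn/Tfeb difference changed sign without control Flcn/Tfeb replicate 3 (from -0.18 to 0.12) and was -0.49 without replicate 2. Leaving out 1 library moved the Flcn/Tfeb less Flcn difference of Gadd45b from 0.21 to between 0.057 and 0.41 (without Flcn KO replicate 1 and replicate 2) its Flcn/Tfe3 less Flcn difference from 0.46 to between 0.30 and 0.66 (without the same libraries), and its Flcn/Tfe3 less Flcn/Tfeb difference from 0.22 to between 0.11 and 0.35 (without Flcn/Tfeb DKO replicate 2 and control Flcn/Tfe3 replicate 8), and Xist as a covariate took the latter to 0.031. In the Flcn/Tfe3 less Flcn contrast 0% of all genes were called, but 459 genes with set C alone, and in the Flcn/Tfe3 less Flcn/Tfeb contrast 0.022% (3 genes), but 82 genes without control Flcn/Tfeb replicate 2. DESeq2 called 8 genes in the Flcn/Tfeb less Flcn contrast (2 by edgeR) and 1 and 7 in the others, and 1012 genes of the Flcn/Tfe3 less Flcn contrast had an unadjusted edgeR p under 0.05. None of the 9 differences passed the threshold, so a difference between crosses was not shown for any member, and the intervals reach from -1.21 to 1.32.

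The members were also set against one another within each library, a comparison chosen after their values were seen. In the Flcn cross, the log2 ratio of Gadd45a to Gadd45b was 2.14 on average in libraries labelled Flcn KO and 1.34 in controls, a difference of 0.80 (exact permutation p = 0.0238, adjusted p = 0.214 over 9 tests of member pairs in the crosses). The other 8 tests had exact permutation p values from 0.135 to 0.892. An unequal change of the members was therefore not shown in any cross.

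Whether the members move together between libraries of the same group was examined over all 3 pairs, and no correlation passed the permutation test. After subtracting the mean of each group and set, the Pearson correlation over 35 libraries was 0.22 for Gadd45a with Gadd45b (Spearman 0.26), -0.20 for Gadd45a with Gadd45g (Spearman -0.20) and 0.038 for Gadd45b with Gadd45g (Spearman 0.078). Permutation p values within groups were 0.281, 0.253 and 0.796 for Pearson and 0.172, 0.299 and 0.66 for Spearman, and at least 0.843 after adjustment over 6 relations. Without the 2 libraries farthest from the median, the Pearson values were 0.22, -0.18 and -0.007. Within sets A, B and C, they were 0.43, -0.05 and 0.08 for Gadd45a with Gadd45b, -0.21, -0.20 and -0.18 for Gadd45a with Gadd45g, and -0.17, -0.21 and 0.65 for Gadd45b with Gadd45g. Each member was also set against the mean of 12 immediate early genes, which respond to handling and stress within minutes. Pearson correlations were 0.061, 0.016 and -0.033 for Gadd45a, Gadd45b and Gadd45g (Spearman -0.056, 0.021 and 0.020), with permutation p values of at least 0.766 and adjusted values of at least 0.921. Without the 2 farthest libraries these were -0.08, -0.03 and 0.19.

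**Figure D3:**
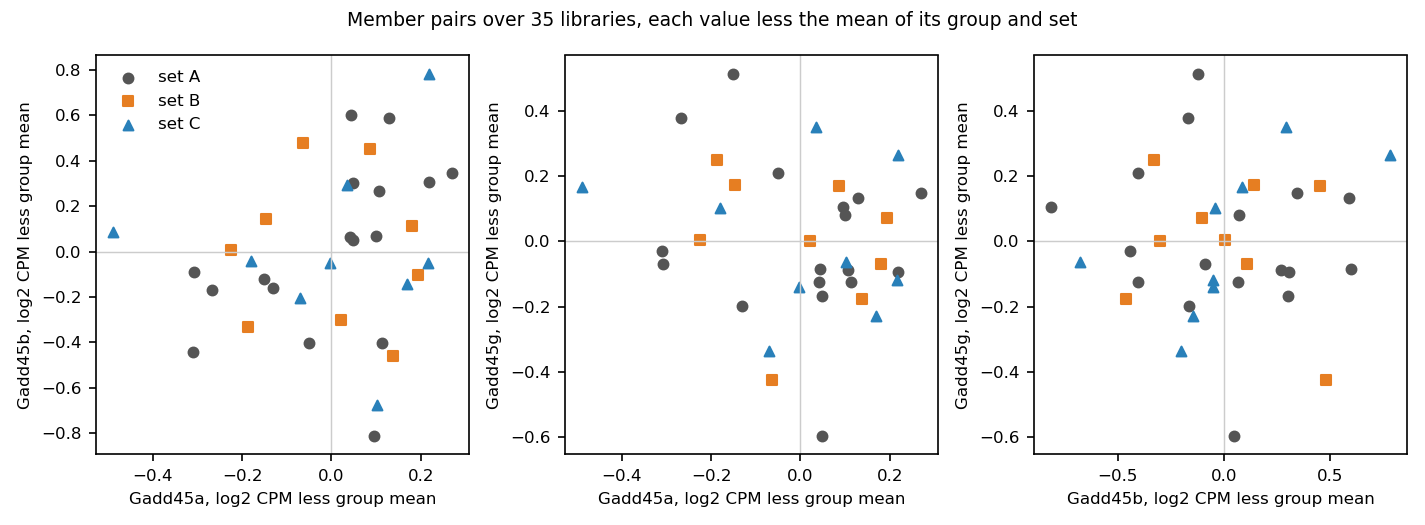
Log2 CPM of 2 members, each less the mean of its group and set, on the x and y axes of each panel, with 1 point per library (35 in all) and a symbol per set. The points scatter widely, with Pearson correlations of 0.22, -0.20 and 0.038 from left to right, none of which passed the permutation test.

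The genes whose pattern over the 35 libraries was most like that of a member were sought among 12274 genes, on log2 CPM less the control mean of the same cross and set, so that differences between mutant and control libraries count towards the likeness. For Gadd45a they were Rab27a (Pearson 0.832), a GTPase of vesicle secretion, Rragd (0.815), the RagD GTPase of nutrient signalling, Pde1a (0.805), a cyclic nucleotide phosphodiesterase, Plet1 (0.765), an epithelial surface protein, and Umod (0.763), uromodulin of the thick ascending limb. Of these, Rab27a, Rragd, Plet1 and Umod were called higher in both the Flcn and Flcn/Tfe3 crosses, with log2 fold changes of 1.33 and 1.38 for Rab27a, 1.13 and 1.34 for Rragd, 1.05 and 0.88 for Plet1 and 1.001 and 0.71 for Umod. None of them was called in the Flcn/Tfeb cross, where the values were 0.18, 0.45, 0.38 and -0.24. Mutant libraries of a cross share their controls in this measure, and the correlations are a description.

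For Gadd45g the most alike genes were Scnn1b (0.701), a subunit of the epithelial sodium channel of principal cells, Slc20a1 (0.65), a phosphate transporter, Aif1l (0.643), an actin-binding protein, Pgam2 (0.637), a glycolytic enzyme, and Atp6v1g3 (0.624), a proton pump subunit of intercalated cells. Scnn1b, Slc20a1 and Atp6v1g3 were called higher in the Flcn cross, with log2 fold changes of 0.58, 1.01 and 1.31, and none of the 5 in the other crosses. For Gadd45b, correlations reached only 0.575 to 0.62 (Mtif3, Fn3krp, 4732463B04Rik, Eef1akmt4 and Zfp449), and none of these genes was called in any cross. No member was among the 5 genes most like another. Of the 12274 genes, Gadd45g ranked 401 and Gadd45b 999 by likeness to Gadd45a (Pearson 0.401 and 0.293), Gadd45a ranked 469 and Gadd45g 2597 by likeness to Gadd45b, and Gadd45a ranked 591 and Gadd45b 3688 by likeness to Gadd45g.

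**Figure D4:**
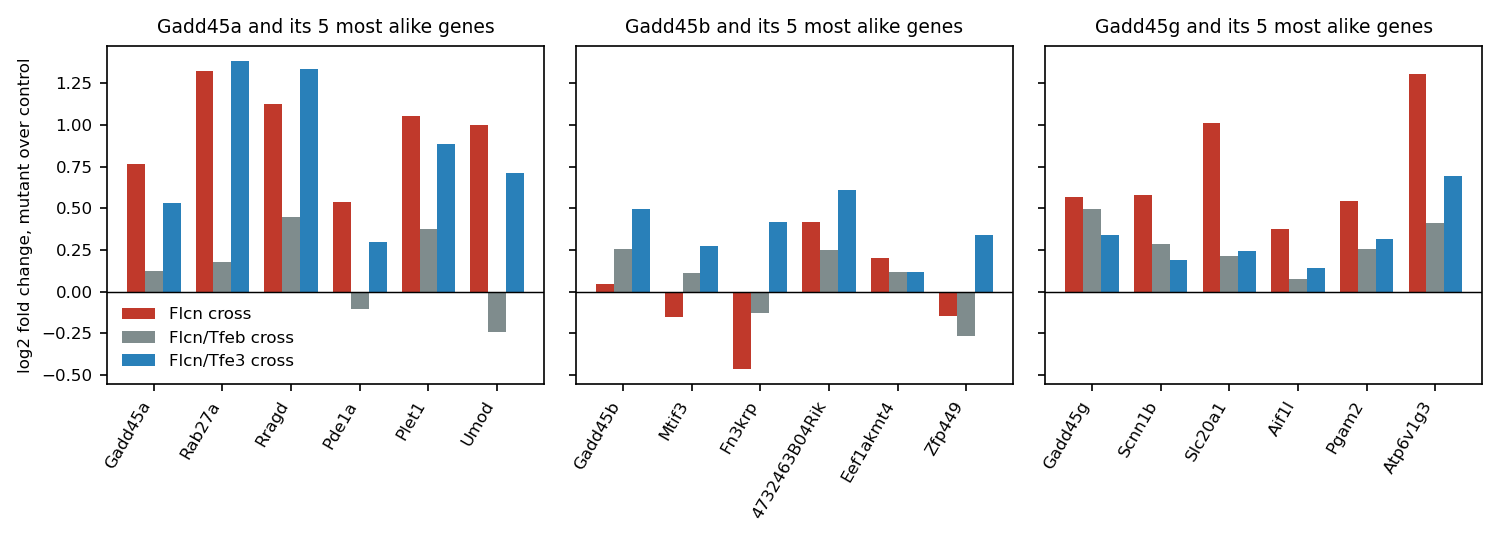
Log2 fold change (y axis) of each member and its 5 most alike genes (x axis) in the 3 crosses, as bars from 0. The genes alike to Gadd45a were highest in the Flcn and Flcn/Tfe3 crosses, up to 1.33 and 1.38 for Rab27a, whereas those alike to Gadd45b had no value above 0.61.

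Levels of cell type markers differed between the groups as well, unevenly within a list. Summed intercalated cell markers (5 genes) ranged from 132 to 193 CPM in controls of the Flcn cross and from 326 to 439 CPM in libraries labelled Flcn KO, from 163 to 214 CPM and 240 to 252 CPM where Tfeb was floxed as well, and for Flcn/Tfe3 from 142 to 178 CPM and 263 to 394 CPM in set B and from 152 to 247 CPM and 241 to 315 CPM in set C. Of these 5 markers, 2 were called higher in the Flcn cross (Atp6v0d2 and Atp6v1g3), 1 in Flcn/Tfe3 (Atp6v0d2) and 0 in Flcn/Tfeb. The sums are mostly Atp6v1g3, with a mean of 182 CPM against 6.92 to 34.8 CPM for the other 4. Slc26a4 was at -0.22 ± 0.25 (log2 fold change and SE) in the Flcn cross and at -0.25 ± 0.36 in Flcn/Tfeb, where Foxi1 was at -1.01 ± 0.55. Summed markers of the thick ascending limb (4 genes) ranged from 835 to 1227 CPM in controls and from 1196 to 1564 CPM in Flcn KO libraries, with only Umod called, as again in the Flcn/Tfe3 cross. The other 3 had log2 fold changes between -0.29 and 0.18 in these crosses, and the list's median was 0.16 and 0.02, respectively. They ranged from 963 to 1030 CPM in controls and from 895 to 1005 CPM in Flcn/Tfeb DKO libraries, and in the Flcn/Tfe3 cross from 785 to 979 CPM and 798 to 1244 CPM in set B and from 751 to 948 CPM and 947 to 1013 CPM in set C. Red blood cell markers were lower in the Flcn/Tfe3 DKO libraries of set C, at 1397 to 1842 CPM against 2077 to 7585 CPM in controls, while the groups overlapped in set B, at 3222 to 6183 CPM against 3596 to 5889 CPM. With both sets in the fit all 5 were lower at an unadjusted p under 0.05 (median log2 fold change -0.64), though none was called. In the other crosses all 5 had values above 0. Summed nephron progenitor markers (4 genes) ranged from 24.5 to 37.2 CPM in controls of the Flcn cross and from 14.4 to 24.1 CPM in Flcn KO libraries, where 2 of the 3 tested were lower at an unadjusted edgeR p under 0.05 (Six2 at -0.997 ± 0.433 and Eya1 at -0.702 ± 0.269, log2 fold change and SE), the third, Meox1, was at 0.295 ± 0.281, and none was called. Summed distal convoluted tubule markers were 296 to 330 CPM in Flcn controls and 218 to 314 CPM in Flcn KO libraries. Calb1 was at -0.675 ± 0.173 there (log2 fold change and SE, edgeR adjusted p = 0.115). Trpm6, Slc12a3 and Pvalb were at -0.16, -0.05 and 0.20. None of the 6 proximal tubule markers had a log2 fold change above 0 in the Flcn cross. Of these, 1 was lower at an unadjusted edgeR p under 0.05. Of the cell type lists other than those of the intercalated cell and thick ascending limb, 1 gene was called, the principal cell marker Scnn1b in the Flcn cross (log2 fold change 0.58 ± 0.13, SE). Aqp2, the most abundant of the 5 principal cell markers, was there at -0.48 ± 0.14 (SE, edgeR adjusted p = 0.20), and the list summed to 342 to 444 CPM in controls and 290 to 406 CPM in Flcn KO libraries. The part of these shifts in the members' levels was not tested. In RNA of whole kidneys, a change in the number of cells of a type and a change of RNA per cell cannot be told apart.

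Genes around the family were read from 6 lists, of targets, partners and regulators, and none of their genes was called by edgeR, whichever the cross, against 0.52% of all genes in the Flcn cross, 0% in Flcn/Tfeb and 0.385% in Flcn/Tfe3. Values of lists are given in this order of the crosses. At an unadjusted edgeR p under 0.05, 5.25%, 1.86% and 3.68% of all genes were higher and 3.81%, 3.21% and 3.48% lower. Among p53 targets, 20, 21 and 22 of 24 genes were tested, of which 0, 0 and 1 were higher and 0, 1 and 0 lower at an unadjusted p under 0.05. Their median log2 fold changes were 0.008, -0.014 and 0.017, beside -0.007, -0.017 and 0.009 over all genes. Cdkn1a, the p21 inhibitor of cyclin-dependent kinases, was at 147 CPM on average, with log2 fold changes of -0.31 ± 0.16, -0.62 ± 0.42 and 0.03 ± 0.13 (SE). Mdm2, the ubiquitin ligase of p53, had values of 0.10 ± 0.14, 0.20 ± 0.21 and -0.14 ± 0.11 (SE), and Ccng1, cyclin G1, of 0.32 ± 0.15, 0.39 ± 0.23 and 0.33 ± 0.14 (SE).

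The partners of GADD45 in cell cycle and DNA repair (16 genes, all tested) had median log2 fold changes of -0.11, -0.19 and 0.01, with 1, 3 and 0 genes lower and none higher at an unadjusted p under 0.05. In the Flcn/Tfeb cross these 3 were Cdk1, Ccnb1 and Ccna2, which drive entry into and passage through mitosis, with log2 fold changes of -0.69, -0.60 and -1.24 and an edgeR adjusted p of 0.80 each. They were named after their values were seen. The most abundant partners were Npm1, the nucleolar protein nucleophosmin (985 CPM), Ing1, a chromatin reader (203 CPM), and Cdkn1a, and their edgeR adjusted p values were at least 0.58 in every cross.

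The p38 and JNK cascade (18 genes, 16 tested) had medians of -0.05, -0.05 and 0.13, with 1 gene higher at an unadjusted p under 0.05 in the Flcn/Tfe3 cross. Its most abundant genes were the kinases Mapkapk2 (81.4 CPM), Map2k3 (69.9 CPM) and Map3k7 (66.5 CPM), whose log2 fold changes lay between -0.45 and 0.18. Known regulators of the family (22 genes, of which 20, 20 and 22 were tested) had medians of -0.08, -0.09 and 0.10, with 3, 2 and 0 genes lower and none higher at an unadjusted p under 0.05. The most abundant were Atf4, the effector of the integrated stress response (256 CPM), at 0.23 ± 0.12, 0.37 ± 0.36 and -0.16 ± 0.10 (SE), Nfyb, a subunit of the CCAAT-binding factor (91.6 CPM), and Wt1, a transcription factor of podocytes and nephron progenitors (78.1 CPM).

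Other genes named for growth arrest and DNA damage, or driven by ATF4, numbered 14, of which 11, 11 and 12 were tested, with medians of 0.002, -0.04 and -0.09. At an unadjusted p under 0.05, 0, 1 and 0 were lower and none higher, the 1 being Ddit4 in the Flcn/Tfeb cross (-0.54 ± 0.23, SE, edgeR adjusted p = 0.80). Hspa5, the chaperone BiP, was the most abundant (1214 CPM), at 0.002 ± 0.12, 0.08 ± 0.20 and -0.13 ± 0.09 (SE), and Atf5, a stress-induced transcription factor, was at 42.7 CPM. Immediate early genes (17, of which 12, 12 and 15 were tested) had medians of -0.11, -0.05 and 0.06, and 2, 0 and 1 were lower and 0, 1 and 0 higher at an unadjusted p under 0.05. Jund, Klf6 and Jun, transcription factors of that response, were the most abundant (175, 108 and 74.8 CPM), and their log2 fold changes lay between -0.37 and 0.24.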

How the data were processed

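RNA of 35 kidneys was prepared with the QuantSeq 3′ kit and sequenced single-end. Per the study's methods the reads were trimmed with bbduk, aligned on mm10 with STAR and counted with HTSeq-count, and the submitters' processing notes name Trim Galore and STAR. The authors deposited whole-number counts per gene without normalization, and columns with a percentage of multimapped reads were not used. Rows that name no gene stayed out of library sizes: in the 26 libraries with such rows, reads aligned to more than 1 place made up 33.7 to 49.4% and reads on no gene 7.92 to 19.9%. The counts were joined by gene ID (31053 genes). Nothing in the labels says more than that each library is a separate sample, so p-values measure the spread between these libraries.

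Each comparison was fitted on the libraries of its crosses with edgeR 4.0.16 in R 4.3.3 (filterByExpr, TMM, two-sided quasi-likelihood F test, Benjamini-Hochberg over all genes tested), with the set as a term for the Flcn/Tfe3 cross, and calls were made at adjusted p values below 0.05. CPM are on TMM sizes over all libraries. Log2 CPM had a prior count of 2, and exact permutation tests a pseudocount of 0.5. The tests were also run on simulated counts, and the outcome is not reported here. Members, lists and alternatives were chosen with earlier results of these data known. Genes named are the 3 members, the targeted genes, of each list the genes called and the 3 most abundant, and the 5 genes most like each member. Cdk1, Ccnb1, Ccna2, Ddit4 and the marker genes fall outside this rule. Alternatives were DESeq2 1.42.0, scaling by RLE, other count filters (none, or a mean of 10), calls at 0.1, Xist or the replicate number as a term, all libraries in 1 fit, single sets, and fits that each lacked 1 library. Figures were drawn with matplotlib 3.10.9.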

Additional observations from a re-analysis of the deposited data

Results flagged for a closer look

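Single libraries far from the rest of their group were sought with Dixon's test in 18 combinations of member and group with 4 to 6 libraries, where chance marks about 1 in 20. There were 2. Gadd45a was 18.07 CPM in Flcn KO replicate 3, the lowest of 5, with the next library at 23.23 CPM, a gap of 0.775 of the range of the group. Without that library the log2 fold change of the Flcn cross was 0.84 in place of 0.76. Gadd45g was 34.31 CPM in Flcn/Tfeb DKO replicate 4, the highest of 4, with the next at 24.68 CPM, a gap of 0.873 of the range.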

How the results depend on the processing

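Gadd45a in the Flcn cross passed the threshold with DESeq2 (log2 fold change 0.762) and with all 35 libraries in 1 fit (0.7655). In the Flcn/Tfe3 cross it no longer did with RLE factors (0.5154), no filter (0.5488), Xist as a covariate (0.5189), set B alone (0.413) or set C alone (0.6126), and the cause was not tested. The replicate numbers did not pair the libraries (correlations of same-numbered libraries from -0.391 to 0.328), and with the replicate number as a block the value was 0.4087 (adjusted p = 1) and 0 genes were called in the Flcn/Tfe3 cross. Leaving out 1 library gave 0.4819 to 0.5736 for that result. It turned the sign of Gadd45b in the Flcn cross (-0.1692 to 0.2045), of Gadd45g in the Flcn/Tfeb less the Flcn effect (-0.3406 to 0.2449) and in the Flcn/Tfe3 less the Flcn/Tfeb effect (-0.4886 to 0.1196). Gadd45b missed the count filter of the Flcn/Tfeb cross without DKO replicate 1 or 3, so no value was had there. Of the genes called in the Flcn cross (62), counts were 100 at a threshold of 0.1, 113 with DESeq2, 95 with no filter and 37 to 58 with 1 library left out (37 without Flcn KO replicate 3). In the Flcn/Tfeb cross (0) they were 3 with all 35 libraries and 0 to 1 with 1 left out. In the Flcn/Tfe3 cross (48) they were 96 with DESeq2, 26 with Xist, 8 in set B, 569 in set C (109 higher and 460 lower, against 43 and 5 over both sets) and 30 to 53 with 1 left out (30 without DKO replicate 7). Correlations moved within sets: 0.6529 for Gadd45b with Gadd45g in set C, and with the immediate early list -0.4532 (set B) and 0.4895 (set C) for Gadd45a, 0.5038 (set B) for Gadd45b and -0.3687 (set C) for Gadd45g. Other correlations near 0 also turned sign, as Gadd45a with Gadd45b in set B (-0.0487) and Gadd45b with Gadd45g in sets A and B (-0.1655 and -0.2148). All other log2 fold changes of the members kept their direction and their side of the threshold under the alternatives run. Counts of 5 to 46 reads limit Gadd45b most.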
